A study of Mus musculus with 2 samples.

Results

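The neuregulins and ErbB receptors are 8 genes in the mouse, and they were taken by symbol from the 32285 genes listed in each library. The ligand genes are *Nrg1* (ENSMUSG00000062991), *Nrg2* (ENSMUSG00000060275), *Nrg3* (ENSMUSG00000041014) and *Nrg4* (ENSMUSG00000032311). The receptor genes are *Egfr* (ENSMUSG00000020122), *Erbb2* (ENSMUSG00000062312), *Erbb3* (ENSMUSG00000018166) and *Erbb4* (ENSMUSG00000062209). The data are single-cell RNA sequencing of dissociated cerebral cortex from wild-type (WT) control mouse embryos of the EomesDot line at embryonic day (E) 16.5, in 2 libraries that form a single group. The line carries *Eomes-Cre*, and both libraries are controls without a mutant, treated or second genotype group beside them. The labels do not say whether a library holds 1 embryo or several, so the spread between the libraries may be technical. The study used data of this kind to look for signals by which SST+ interneurons of the cortex could act on progenitors.

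Neuregulins are growth factors with an EGF-like domain, mostly made as membrane-bound precursors that are released by proteolysis. They bind ErbB3 or ErbB4, which pair with each other or with ErbB2, a receptor without a known ligand of its own, while Egfr answers to EGF and related ligands. In the developing forebrain this system is known for guiding ErbB4-positive interneurons that migrate tangentially from the ganglionic eminences, with neuregulins made along the route and in the cortex, and for its part in the radial glial scaffold and in glial lineages.

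Cells were kept with 1500 to 60000 unique molecular identifiers (UMIs, each standing for 1 captured RNA molecule) and under 10% mitochondrial UMIs. Replicate 1 kept 5966 of 9049 barcodes, with a median of 5706 UMIs, and replicate 2 kept 10247 of 13556 barcodes, with a median of 4938 UMIs. The total was 46398156 UMIs in replicate 1 and 64324236 UMIs in replicate 2, and 40 barcodes occurred in both libraries. Cell types were taken as gates on raw UMIs of marker genes that include none of the 8 members. The gates held 46.5% and 45.2% of the kept cells in replicates 1 and 2, and the other cells met no gate or met more than 1. Of 20 gates, 16 had at least 20 cells in each library, and these carry the tests. The genes next named were used in the gates, so their levels describe the gates and are no check of them. *Lhx6* was highest in the MGE (medial ganglionic eminence) interneuron gate, at 474 and 416 CPM (UMIs of the gene for every 1000000 UMIs of the gate) in replicates 1 and 2. *Eomes* was highest in the intermediate progenitor gate, at 664 and 636 CPM, and *Isl1* in the striatal neuron gate, at 385 and 386 CPM. The tissue labelled cerebral cortex thus also yielded cells with striatal markers, 412 in replicate 1 and 631 in replicate 2. The UMIs mark the end of a transcript and were not scaled by gene length. Whether intronic reads were counted is not given in the sources used here, and if they were, the levels and ranks of long genes such as *Nrg1*, *Nrg3* and *Erbb4* could depend on gene length. Levels are therefore compared between gates for each gene, and isoforms cannot be told apart. In cells of a droplet library a few UMIs can come from free RNA. The erythroid gate, whose cells should lack these genes, is given for comparison. It was set by globin alone, and held *Neurod6* at 100.4 and 84.9 CPM and *Gad2* at 37.4 and 27.6 CPM. Its 75 and 190 *Erbb4* UMIs lay in 8.51% and 5.24% of its cells. Upper-layer neurons held only 9.06 and 7.33 CPM of *Erbb4*, against 148 and 209.6 CPM in the erythroid gate. The erythroid level is thus no limit for free RNA in other gates. The median depth of the erythroid gate was 2825 UMIs in replicate 1 and 3215 UMIs in replicate 2.

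*Nrg1*, the best-studied neuregulin, spans 1084.2 kb of chromosome 8 (31807452 to 32891609 in mm10). Its level was highest along the excitatory lineage before the neurons matured. The intermediate progenitor gate held 6290.3 CPM in replicate 1 and 6302 CPM in replicate 2, where it ranked 5th among all genes in both libraries. The radial glia gate held 4107 and 4380.2 CPM, and the newborn excitatory neuron gate 3265 and 3286 CPM. These gates did not overlap with each other or with any other gate. The Cajal-Retzius gate followed with 1291 and 1943 CPM, from 26 and 36 cells. The next group lay close together and its neighbours overlapped. It held the upper-layer neuron gate with 848 and 675 CPM, the layer 6 neuron gate with 752 and 625 CPM, and the CGE (caudal ganglionic eminence) interneuron gate with 803 and 554 CPM. The cycling GABAergic progenitor gate with 644 and 678 CPM and the striatal neuron gate with 716 and 597 CPM belonged to the same range. The MGE interneuron gate was the lowest neuronal gate, at 260 and 292 CPM, still above the 88.5 and 189.7 CPM of the erythroid gate. The Olig1 glial gate, at 195 and 143 CPM, overlapped with the erythroid gate.

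**Figure D1:**
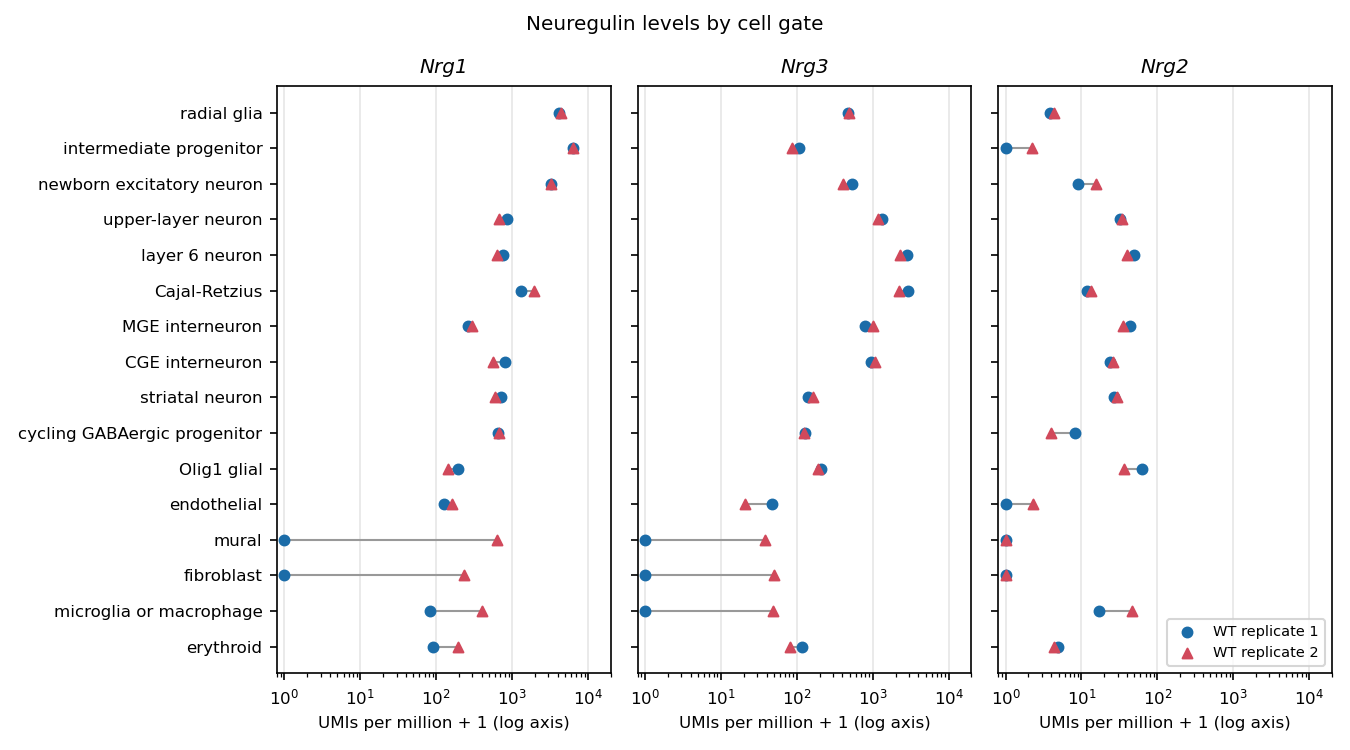
Levels of Nrg1, Nrg3 and Nrg2 in the 16 gates with at least 20 cells per library, as CPM plus 1 on a log axis. Each point is a library, with circles for WT replicate 1 and triangles for WT replicate 2. Nrg1 is highest in intermediate progenitors, radial glia and newborn excitatory neurons, and Nrg3 in layer 6 neurons and Cajal-Retzius cells, while the mural and fibroblast gates show Nrg1 in replicate 2 only.

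Single cells showed the same order. In the intermediate progenitor gate the median cell held 40 *Nrg1* UMIs in replicate 1 and 30 UMIs in replicate 2, and 2 cells in each library held none. The median was 27 and 17 UMIs in radial glia, and 3 and 2 UMIs in upper-layer neurons. A *Nrg1* UMI was found in 98.9% ± 0.416 (SD, n = 2) of intermediate progenitors and in 8.84% ± 0.466 (SD, n = 2) of erythroid cells. Thinning each cell to 1500 UMIs left shares of 95.6% ± 2.18 and 5.89% ± 0.311 (SD, n = 2). The level was uneven within the progenitor gates. Intermediate progenitors without a UMI of 8 cell cycle genes held 6945 and 8584 CPM in replicates 1 and 2, and those with at least 2 of these genes 4202 and 4179 CPM. Radial glia without a cycle gene held 6099.7 and 5656 CPM, against 3524 and 3398 CPM in those with at least 2. In both gates the lower value of the cells without a cycle gene was above the higher value of the cycling cells. The cells without a cycle gene were also shallower, with medians of 7679 and 5947 UMIs against 11330 and 8016 UMIs in intermediate progenitors, and 7389 and 4095.5 UMIs against 9609 and 6179.5 UMIs in radial glia. The part of depth in the split was not tested. The split was made after the values had been seen and has no test. In the mural gate all 204 *Nrg1* UMIs came from replicate 2, and in the fibroblast gate all 139 UMIs did, with 0 UMIs in the 21 and 20 cells of replicate 1. The highest single cell of replicate 2 held 147 of the 204 and 51 of the 139 UMIs.

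*Nrg3*, a neuregulin that binds ErbB4, spans 1108.1 kb of chromosome 14 (38365102 to 39473235 in mm10). It followed a different order and was highest in deep-layer and Cajal-Retzius cells. The layer 6 neuron gate held 2828 and 2285 CPM in replicates 1 and 2, and the Cajal-Retzius gate 2917 and 2187 CPM. These gates overlapped with each other and lay above the upper-layer neuron gate, at 1313 and 1180.0 CPM. The layer 5 neuron gate, with only 14 and 41 cells, held 2211 and 1648 CPM. The CGE interneuron gate held 947 and 1076 CPM and the MGE interneuron gate 785 and 1015 CPM, and these overlapped. Radial glia, at 475 and 488 CPM, overlapped with newborn excitatory neurons, at 530.0 and 402 CPM. The striatal neuron gate held 140.1 and 162 CPM and the cycling GABAergic progenitor gate 129 and 123 CPM. The intermediate progenitor gate, the highest for *Nrg1*, held 105 and 85.8 CPM of *Nrg3*, which overlapped with the 116 and 80.5 CPM of the erythroid gate.

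At least 1 *Nrg3* UMI was carried by 94.5% ± 2.02 (SD, n = 2) of layer 6 neurons, 51.3% ± 5.78 (SD, n = 2) of MGE interneurons and 7.80% ± 3.01 (SD, n = 2) of erythroid cells. The median depths of the layer 6 gate were 7204.5 and 6582 UMIs, and those of the MGE gate 3291 and 3722 UMIs. At 1500 UMIs per cell these became 85.4% ± 5.39, 42.1% ± 4.75 and 5.24% ± 0.615 (SD, n = 2). The intermediate progenitor gate, at 7.64% ± 0.630 (SD, n = 2), then lay slightly above the erythroid gate. Before thinning its share was 24.7% ± 7.83 (SD, n = 2), at median depths of 8644 and 6937 UMIs. Among MGE interneurons *Nrg3* was spread unevenly. No *Nrg3* UMI was found in 169 of 320 cells in replicate 1 and 212 of 475 cells in replicate 2, while the highest cells held 74 and 103 UMIs.

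*Nrg2* (chromosome 18, 36014581 to 36197532 in mm10) was scarce, with 859 and 1196 UMIs in all kept cells of replicates 1 and 2. The Olig1 glial gate held 61.5 and 34.9 CPM from 12 and 9 UMIs, the layer 6 gate 48.9 and 38.6 CPM, and the MGE interneuron gate 43.0 and 34.0 CPM. These 3 gates overlapped. The upper-layer gate held 31.7 and 33.0 CPM, and the newborn excitatory neuron gate 8.04 and 14.5 CPM. In the progenitor gates *Nrg2* was close to the limit of detection, with 5 and 6 UMIs in radial glia, 0 and 2 UMIs in intermediate progenitors and 15 and 9 UMIs in cycling GABAergic progenitors. *Nrg4* (chromosome 9, 55220222 to 55283654) had 57 and 96 UMIs in all kept cells, and no gate of the tests exceeded 4.69 CPM in either library. A level of these sizes was not resolved between gates at this depth.

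*Erbb4*, the neuregulin receptor of migrating interneurons, spans 1076.7 kb of chromosome 1 (68031884 to 69108576 in mm10). It was highest in the MGE and CGE interneuron gates, followed by the Olig1 glial gate and then the other GABAergic gates. The MGE interneuron gate held 11139 and 9804 CPM in replicates 1 and 2, and the CGE interneuron gate 10063 and 7858 CPM. These gates overlapped, and the gene ranked 5th among all genes in both gates and both libraries. The Olig1 glial gate held 1472 and 1063 CPM, the cycling GABAergic progenitor gate 929 and 1008 CPM and the striatal neuron gate 514 and 672 CPM, and each of these lay apart from its neighbours in the order. All other gates of the tests lay at or below, or overlapped with, the erythroid gate, which held 148 and 209.6 CPM. Radial glia held 64.4 and 43.2 CPM, newborn excitatory neurons 12.1 and 28.0 CPM, intermediate progenitors 9.73 and 25.1 CPM, layer 6 neurons 7.11 and 15.9 CPM and upper-layer neurons 9.06 and 7.33 CPM. The Cajal-Retzius gate was uneven, with 157 CPM from 29 UMIs in replicate 1 and 15.4 CPM from 5 UMIs in replicate 2.

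**Figure D2:**
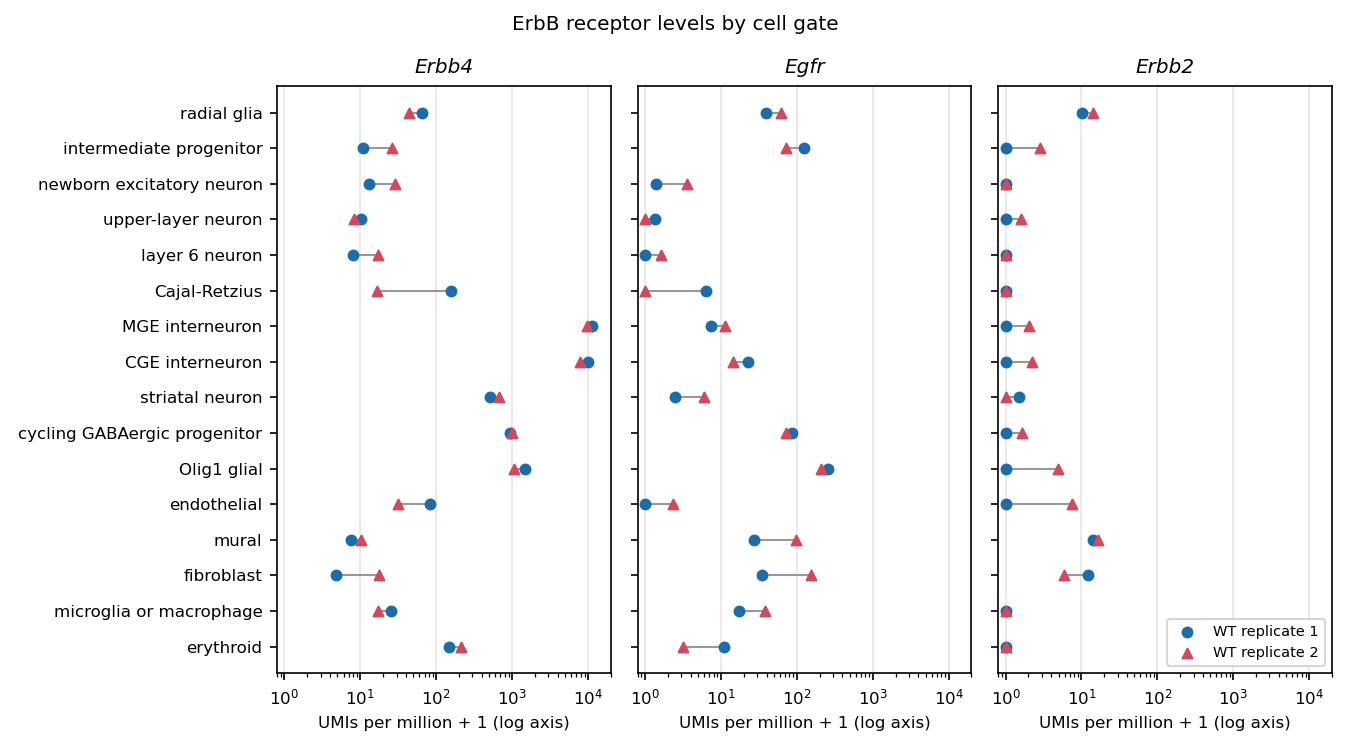
Levels of Erbb4, Egfr and Erbb2 in the 16 gates with at least 20 cells per library, as CPM plus 1 on a log axis, with circles for WT replicate 1 and triangles for WT replicate 2. Erbb4 lies near 10000 in both interneuron gates and under 30 in the upper-layer, layer 6, newborn neuron and intermediate progenitor gates. Egfr is highest in the Olig1 glial gate, and Erbb2 stays under 20 in every gate.

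Nearly every interneuron carried *Erbb4*. It was detected in 98.9% ± 0.230 (SD, n = 2) of MGE interneurons and 94.0% ± 3.05 (SD, n = 2) of CGE interneurons, and in 6.88% ± 2.31 (SD, n = 2) of erythroid cells. At 1500 UMIs per cell these became 98.6% ± 0.677, 89.8% ± 1.85 and 4.67% ± 0.423 (SD, n = 2). The median MGE interneuron held 30 UMIs in replicate 1 and 32 UMIs in replicate 2. GABAergic gates with lower levels had their UMIs spread unevenly over cells. No *Erbb4* UMI was found in 49.4% and 51.2% of cycling GABAergic progenitors or in 75.7% and 70.7% of striatal neurons, while the highest cells held 292 and 157 UMIs in the first gate and 147 and 114 UMIs in the second. The share with a UMI depended on depth and went from 49.7% ± 1.25 to 33.5% ± 0.0802 (SD, n = 2) in cycling GABAergic progenitors after thinning. In the Olig1 glial gate the median cell held 8 and 4 UMIs, and 4 of 25 and 7 of 34 cells held none. In upper-layer neurons a UMI was found in 5.10% ± 1.08 (SD, n = 2) of cells, at median depths of 6087.5 and 5323.5 UMIs, and in 1.39% ± 0.0273 (SD, n = 2) after thinning, which is below the erythroid share.

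*Egfr*, the receptor of EGF and TGF-alpha, lies on chromosome 11 (16752203 to 16913907 in mm10). Its level was highest in the Olig1 glial gate, followed by progenitor, fibroblast and mural gates. The Olig1 glial gate held 256 CPM in replicate 1 and 209.4 CPM in replicate 2, above every other gate. With stricter gates its mean level was 130.03 CPM, and the gate then fell under the minimum of cells in replicate 1. Intermediate progenitors held 124 and 72.0 CPM, cycling GABAergic progenitors 84.5 and 71.7 CPM and radial glia 37.8 and 60.8 CPM. The fibroblast gate, at 34.0 and 151 CPM, and the mural gate, at 26.3 and 98.0 CPM, overlapped with them. The erythroid gate held 9.84 and 2.21 CPM. The postmitotic gates were low, with 6.50 and 10.3 CPM in MGE interneurons, 21.8 and 13.2 CPM in CGE interneurons, and 1 and 0 UMIs in upper-layer neurons, where 3 UMIs would correspond to 1.05 and 0.579 CPM. At these levels few UMIs per cell can be captured, so a cell without a UMI may still hold the transcript. In the Olig1 glial gate 18 of 25 and 23 of 34 cells held no *Egfr* UMI, and in the intermediate progenitor gate 104 of 139 and 190 of 235 cells held none, while a single intermediate progenitor of replicate 1 held 33 UMIs. The share of Olig1 glial cells with a UMI was 30.2% ± 3.08 (SD, n = 2) and 12.8% ± 6.82 (SD, n = 2) after thinning. In fibroblasts it was 39.4% ± 6.19 (SD, n = 2), and 15.9% ± 8.40 (SD, n = 2) after thinning. In the Olig1 glial gate, cells with at least 2 cell cycle genes held 349 and 346 CPM and cells without any 85.3 and 23.9 CPM, from 14 and 15 cells and 9 and 15 cells. The cells without any rested on 5 and 2 *Egfr* UMIs and were shallower, with medians of 4762 and 4019 UMIs against 8464.5 and 10621 UMIs, so their level was not resolved. In intermediate progenitors the same split gave 230.3 against 22.6 CPM in replicate 1 and 89.1 against 82.6 CPM in replicate 2, so that replicate 1 set the difference. These splits are descriptions made after the values had been seen.

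*Erbb2* (chromosome 11, 98412484 to 98437716), the co-receptor of the family, had 38 and 90 UMIs in all kept cells. Its clearest neural level was in radial glia, at 9.03 and 13.1 CPM from 16 and 23 UMIs. Those were 42.1% and 25.6% of all its UMIs, where the gate held 4.51% and 2.97% of the UMIs of all genes. The mural gate held 13.1 and 15.3 CPM from 2 and 5 UMIs. Newborn excitatory neurons, layer 6 neurons and Cajal-Retzius cells held 0 UMIs in both libraries. *Erbb3* (chromosome 10, 128567523 to 128589635), the kinase-impaired neuregulin receptor typical of Schwann cells and oligodendrocyte precursors, had 10 and 11 UMIs in all kept cells. The Olig1 glial gate held 1 and 2 of them, and 5 of the 11 UMIs of replicate 2 lay in a single endothelial cell. The Schwann or neural crest gate, which should hold the gene, took 0 cells in replicate 1 and 3 cells in replicate 2, with 0 *Erbb3* UMIs.

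To place these receptor genes beside their sequence, the bases upstream of the first annotated exon are given for *Egfr* and *Erbb2*, from RefSeq on GRCm38.p6, which is the build mm10. Windows of RefSeq were at hand for 5 of the 8 members. Those of *Erbb4* and *Nrg3* lay within annotated exons and are not shown, and that of *Nrg4* is left out since its level was not resolved. The *Egfr* stretch lies at chr11:16751953-16752197 and the *Erbb2* stretch at chr11:98412234-98412376, both on the plus strand.
Egfr: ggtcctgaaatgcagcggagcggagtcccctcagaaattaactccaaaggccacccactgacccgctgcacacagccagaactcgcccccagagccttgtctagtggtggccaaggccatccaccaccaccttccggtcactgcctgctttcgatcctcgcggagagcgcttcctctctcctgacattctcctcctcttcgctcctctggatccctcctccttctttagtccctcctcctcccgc
Erbb2: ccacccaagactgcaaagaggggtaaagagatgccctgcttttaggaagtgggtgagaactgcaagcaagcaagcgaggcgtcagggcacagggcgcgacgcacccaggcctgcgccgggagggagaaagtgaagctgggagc
Capitals would mark a match on either strand to the E-box CANNTG, the homeodomain core TAATTA, the TATA box TATAAA or the GC box GGGCGG, and neither stretch held any. Among 32851 start-site windows cut to the same 245 bases as *Egfr*, 65.7% held an E-box, 4.80% a homeodomain core, 12.2% a TATA box and 32.1% a GC box. At the 143 bases of *Erbb2* the shares were 47.5%, 3.08%, 7.02% and 15.7%. The GC content was 60.4% for *Egfr* and 61.5% for *Erbb2*, against medians of 52.2% and 51.0%. The letters describe only these windows.

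Summed over all kept cells, the members lay in different parts of the sample. The 3 early excitatory gates held 31.8% and 28.7% of all *Nrg1* UMIs but 14.0% and 10.3% of the UMIs of all genes. The MGE and CGE interneuron gates held 46.4% and 41.4% of all *Erbb4* UMIs, against 5.82% and 5.95% of the UMIs of all genes. Cells without a gate held 57.3% and 58.7% of the *Nrg1* UMIs and 46.8% and 50.7% of the *Erbb4* UMIs, so the gates account for part of each member only. Ligand and receptor transcripts also met in the same cells. Both *Erbb4* and *Nrg3* were found in 149 of 320 MGE interneurons in replicate 1 (46.6%) and 260 of 475 in replicate 2 (54.7%), and in 44.3% and 39.9% of CGE interneurons. Since almost every interneuron carried *Erbb4*, these shares are close to those of *Nrg3* alone, at 47.2% and 55.4% in the MGE gate. *Nrg1* and *Nrg3* were found together in 79.1% and 66.4% of layer 6 neurons and in 65.1% and 56.9% of radial glia.

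**Figure D3:**
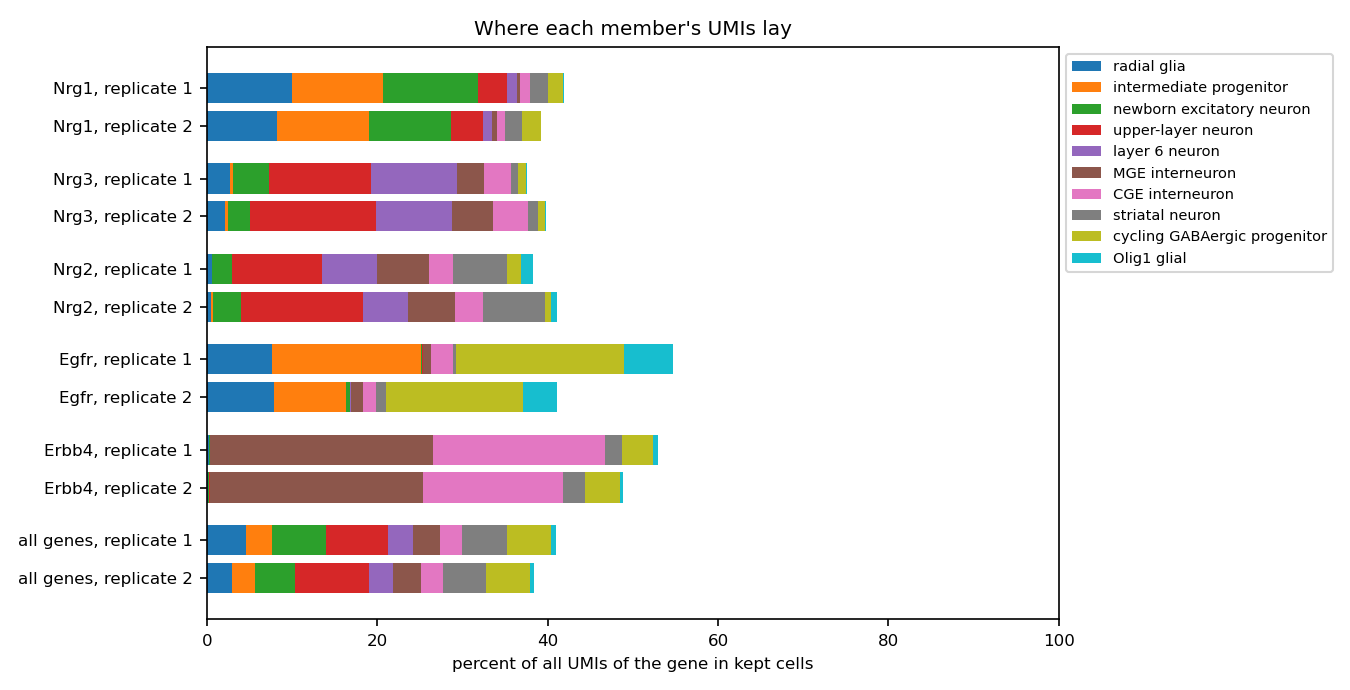
Share of all UMIs of a gene in kept cells that lay in 10 neural gates, for each library, with all genes as the reference at the bottom. Each bar is a library and each colour a gate, and the empty remainder is cells of other gates or without a gate. The bars of Nrg1 are filled mainly by the radial glia, intermediate progenitor and newborn neuron gates, and those of Erbb4 by the MGE and CGE interneuron gates.

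To compare gates, UMIs were summed per gate and library and tested across all genes in edgeR (quasi-likelihood F test, library block, Benjamini-Hochberg adjustment). The false discovery rate (FDR) is the p-value after that adjustment. Genes with an FDR under 0.05 are called, and SE is the standard error of a log2 fold change. Of the 8 members, 6 passed the filter on low counts, while *Nrg4* and *Erbb3* did not and have no test. The comparisons share gates, so they are not independent of each other. Where a gate overlapped with or lay below the erythroid gate, this is given as a description. The erythroid level is no limit for free RNA, which was not measured apart. The part of free RNA in such low levels, and in fold changes against them, was not tested.

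Between MGE interneurons and upper-layer neurons 4 of the 6 members were called, 2 higher and 2 lower in MGE interneurons, where 25.3% of all genes were called. *Erbb4* was higher by 10.28 ± 0.31 (SE) on the log2 scale at an FDR of 1.4e-29 (edgeR), and the libraries did not overlap. The ratios of *Erbb4* were 10.26 in replicate 1 and 10.39 in replicate 2. The upper-layer side rested on 26 and 38 UMIs, at levels below the erythroid gate, and the part of free RNA in so few UMIs was not tested. *Egfr* was higher too (edgeR, FDR of 0.00014), but rested on 28 UMIs in MGE interneurons and 1 UMI in upper-layer neurons, and the level in MGE interneurons overlapped with the erythroid gate. The ratio of its summed levels was 71.1, with an exact 95% counting interval from 11.7 to 2906. *Nrg1* was lower, at -1.52 ± 0.31 (SE) on the log2 scale at an FDR of 0.00017 (edgeR). The *Nrg1* call was lost with DESeq2, at an FDR of 0.432, and the value was -2.15 with high doublet scores removed. *Nrg3* was lower, at -0.51 ± 0.17 (SE) at an FDR of 0.0190 (edgeR). The ratio for *Nrg3* was -0.74 in replicate 1 and -0.22 in replicate 2. Its call was lost in 4 alternatives, at FDRs of 0.107 with stricter gates, 0.0505 with RLE scaling and 0.0992 without the library block (edgeR), and of 0.655 with DESeq2. *Nrg2* and *Erbb2* were not called.

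Against other GABAergic gates *Nrg1* was called lower in MGE interneurons by edgeR in each of 3 comparisons and by DESeq2 in 0 of 3. Between MGE and CGE interneurons 1 of 6 members was called, against 5.99% of all genes. This was *Nrg1*, lower in MGE interneurons, at -1.27 ± 0.32 (SE) at an FDR of 0.00780 (edgeR). *Erbb4* differed by 0.25 ± 0.19 (SE) and *Nrg3* at -0.14 ± 0.17 (SE) at FDRs of 0.631 and 0.815 (edgeR). The *Nrg1* call was lost with stricter gates, at an FDR of 0.0507 (edgeR), without the library block, at 0.0993, and with DESeq2, at 0.769. Between MGE interneurons and striatal neurons 3 of 6 members were called, against 11.9% of all genes. *Erbb4* was higher in MGE interneurons by 4.14 ± 0.21 (SE) and *Nrg3* by 2.58 ± 0.19 (SE) at FDRs of 8.7e-21 and 2.8e-15 (edgeR). *Nrg1* was lower, at -1.25 ± 0.32 (SE) at an FDR of 0.00409 (edgeR). This call was lost without the library block, at an FDR of 0.0619 (edgeR), and with DESeq2, at 0.663, and the value was -1.87 with high doublet scores removed. With those cells removed *Egfr* was also called, at 2.64 and an FDR of 0.00714 (edgeR), against 1.29 and an FDR of 0.273 with them.

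Between MGE interneurons and cycling GABAergic progenitors 5 of 6 members were called, 3 higher and 2 lower in the interneurons, where 39.8% of all genes were called. *Erbb4* was higher in interneurons by 3.60 ± 0.21 (SE) at an FDR of 2.2e-19, and *Egfr* was lower, at -2.96 ± 0.38 (SE) at an FDR of 8e-09 (edgeR), with ratios of -3.70 in replicate 1 and -2.80 in replicate 2 and a level in interneurons that overlapped with the erythroid gate. Of the ligands, *Nrg3* was higher by 3.01 ± 0.19 (SE), *Nrg2* higher by 3.14 ± 0.31 (SE) and *Nrg1* lower, at -1.09 ± 0.32 (SE). Their FDRs were 1.1e-17, 2.3e-11 and 0.00456 (edgeR), and with DESeq2 *Nrg1* was not called, at an FDR of 0.506.

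**Figure D4:**
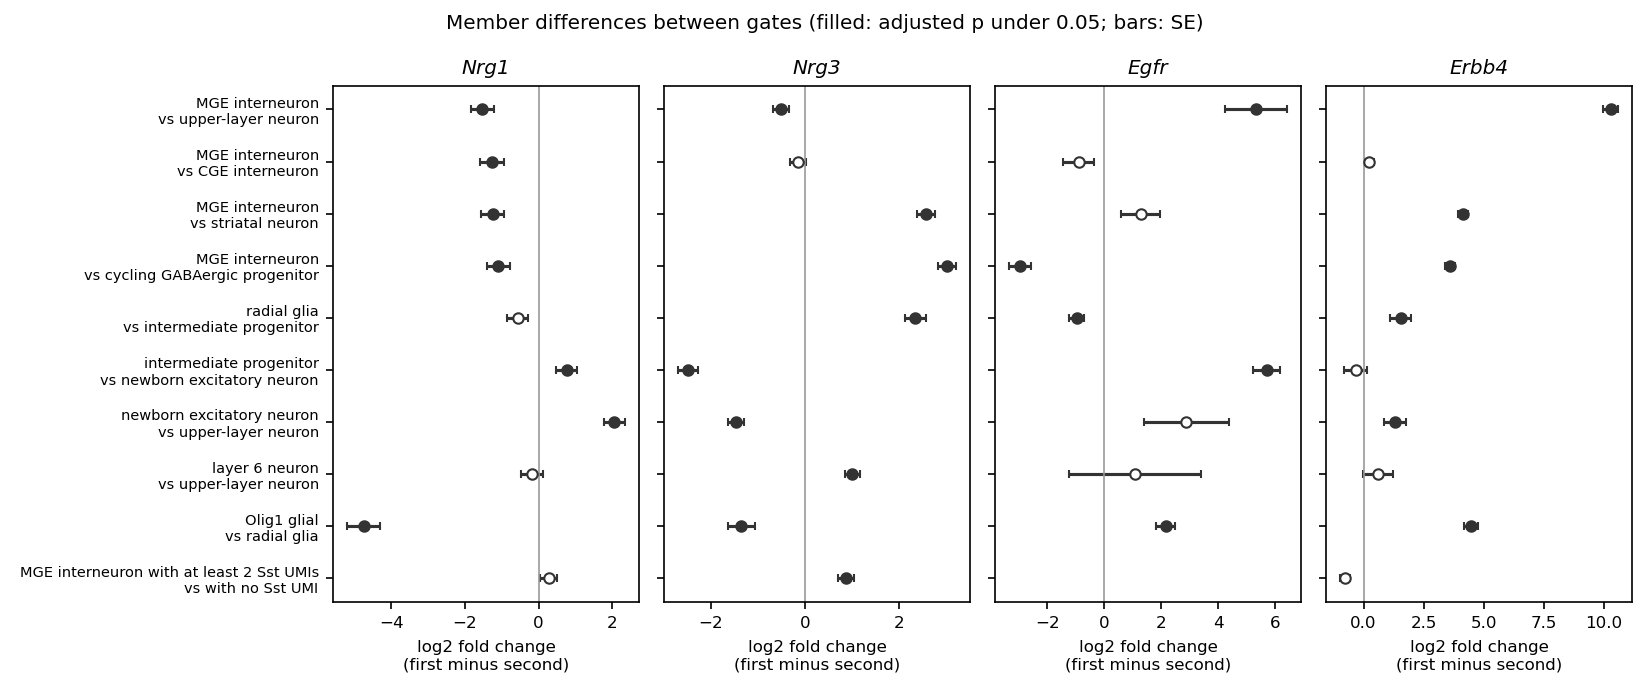
Log2 fold changes of Nrg1, Nrg3, Egfr and Erbb4 in the tested comparisons (first gate minus second), with bars for the standard error and filled points for an FDR under 0.05; Egfr has no value in the bottom row. The panels have their own horizontal scales. Erbb4 reaches 10.28 in the top row, and between intermediate progenitors and newborn excitatory neurons Nrg1 is at 0.76 and Nrg3 at -2.47.

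Along the excitatory lineage neighbouring gates were compared in turn. Between radial glia and intermediate progenitors 4 of 6 members were called, 3 higher and 1 lower in radial glia, against 21.2% of all genes. *Nrg3* was higher in radial glia by 2.34 ± 0.22 (SE) at an FDR of 5.6e-12 (edgeR), against a level in intermediate progenitors that overlapped with the erythroid gate. *Erbb4* was higher by 1.55 ± 0.44 (SE) at an FDR of 0.00687 (edgeR), at ratios of 2.73 in replicate 1 and 0.79 in replicate 2 and at levels below the erythroid gate. *Erbb2* was called higher (edgeR, FDR of 0.00430) on 39 UMIs against 3 UMIs, a ratio of 10.4 with an exact 95% counting interval from 3.31 to 52.7. *Egfr* was lower, at -0.96 ± 0.26 (SE) at an FDR of 0.00538 (edgeR), at ratios of -1.71 and -0.24, so the difference was small in replicate 2. DESeq2 called none of these but *Nrg3*, with FDRs of 0.0662 for *Erbb4*, 0.0785 for *Erbb2* and 0.315 for *Egfr*. *Nrg1* was lower in radial glia, at -0.57 ± 0.28 (SE) and was not called at an FDR of 0.151 (edgeR), although its ratios of -0.62 and -0.52 were close. It was called without the filter on low counts, at an FDR of 4.9e-05 (edgeR), and with only the 11 neural gates in the fit, a choice made once the data had been seen, at 0.00175 (edgeR). With DESeq2 its FDR was 0.840.

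Between intermediate progenitors and newborn excitatory neurons 4 of 6 members were called, against 34.4% of all genes. *Nrg1* was higher in intermediate progenitors by 0.76 ± 0.28 (SE) at an FDR of 0.0293 (edgeR). Its ratios were 0.95 and 0.94, and the call was lost with stricter gates, at an FDR of 0.120 (edgeR), without the library block, at 0.158, and with DESeq2, at 0.667. *Nrg3* was lower, at -2.47 ± 0.21 (SE) at an FDR of 3e-13 (edgeR), and at -1.72 with stricter gates. The CPM of intermediate progenitors again overlapped with the erythroid gate. *Egfr* was higher by 5.71 ± 0.47 (SE) at an FDR of 4.6e-14 (edgeR), measured against 1 and 7 UMIs in newborn neurons, and its ratios were 8.27 in replicate 1 and 4.82 in replicate 2, further apart than the SE conveys. The *Egfr* level of newborn neurons overlapped with the erythroid gate. *Nrg2* was lower (edgeR, FDR of 5.7e-06) on 2 UMIs against 60 UMIs, which makes it 16.2 times higher in newborn neurons, with an exact 95% counting interval from 4.30 to 136.9.

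Between newborn excitatory and upper-layer neurons 4 of 6 members were called, 2 higher and 2 lower in newborn neurons, against 16.5% of all genes. *Nrg1* was higher in newborn neurons by 2.06 ± 0.29 (SE) at an FDR of 3e-07 (edgeR). *Nrg3* was lower, at -1.47 ± 0.17 (SE) and *Nrg2* at -1.55 ± 0.23 (SE) at FDRs of 3e-09 and 1.3e-06 (edgeR). With DESeq2 *Nrg2* alone was called, while *Nrg1* had an FDR of 0.303, *Nrg3* of 0.0652 and *Erbb4* of 0.227. *Erbb4* was called higher by 1.29 ± 0.46 (SE) at an FDR of 0.0454 (edgeR), at levels below the erythroid gate. Its ratios were 0.41 in replicate 1 and 1.93 in replicate 2. With stricter gates the value fell to 0.05 at an FDR of 0.990 (edgeR), and with high doublet scores removed to 0.63 at an FDR of 0.447 (edgeR).

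Between layer 6 and upper-layer neurons 1 of 6 members was called, against 6.44% of all genes. This was *Nrg3*, higher in layer 6 neurons by 1.01 ± 0.16 (SE) at an FDR of 1.2e-05 (edgeR), at ratios of 1.11 and 0.95. With DESeq2 it was not called, at an FDR of 0.415. *Nrg1* differed by -0.17 ± 0.30 (SE) and was not called at an FDR of 0.876 (edgeR). Layer 5 neurons were too few for the fit in replicate 1. With gates of at least 10 cells, an alternative chosen after seeing the data, 0 of 6 members were called against upper-layer neurons by edgeR, where 2.32% of all genes were called, and 1 member had an unadjusted p-value under 0.05. This was *Nrg3*, at 0.38 ± 0.18 (SE) and an FDR of 0.408 (edgeR). DESeq2 was not run on those gates.

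The Olig1 glial gate, which takes cells with markers of oligodendrocyte precursors, differed from radial glia in 5 of 6 members, 3 higher and 2 lower, against 10.4% of all genes. *Erbb4* was higher by 4.47 ± 0.28 (SE), *Egfr* by 2.16 ± 0.34 (SE) and *Nrg2* by 3.79 ± 0.59 (SE). Their FDRs were 5.2e-17, 3.4e-06 and 3.6e-06 (edgeR). The ratios of *Egfr* were 2.76 in replicate 1 and 1.78 in replicate 2, and those of *Nrg2* 4.45 and 3.36. Radial glia lay below the erythroid gate for *Erbb4* and near its 3.94 and 3.31 CPM for *Nrg2*. *Nrg1* was lower, at -4.75 ± 0.44 (SE) and *Nrg3* at -1.35 ± 0.29 (SE) at FDRs of 1.5e-11 and 0.00053 (edgeR), and the *Nrg3* call was lost with DESeq2, at an FDR of 0.187. The glial level of *Nrg1* overlapped with the erythroid gate. The gate held only 25 and 34 cells, and *Nrg2* rested on 12 and 9 UMIs against 5 and 6 UMIs.

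Within the MGE interneuron gate, cells with at least 2 *Sst* UMIs were set against cells with none, with 35 and 53 against 244 and 382 cells. The *Sst*-positive cells held 4711 and 5319 UMIs per cell on average, and the *Sst*-negative cells 3742 and 3964 UMIs. *Nrg3* held 1334 and 1568 CPM in *Sst*-positive cells and 658 and 940.4 CPM in *Sst*-negative cells, so the groups did not overlap. *Erbb4* held 6143 and 6974 CPM against 12199.7 and 10315 CPM, again without overlap and in the other direction. Of the 4 members with enough counts, 1 was called, against 1.87% of all genes. *Nrg3* was higher by 0.87 ± 0.17 (SE) in *Sst*-positive cells at an FDR of 0.0151 (edgeR). *Erbb4* was lower, at -0.77 ± 0.20 (SE) and was not called at an FDR of 0.0615 (edgeR). It was called in 5 of the alternative fits at FDRs from 0.000283 to 0.00927, among them DESeq2. Without the library block neither was called by edgeR, and *Nrg3* had an FDR of 0.139. *Nrg1* held 437 and 255 CPM against 245 and 298 CPM, and *Nrg2* had 8 and 3 UMIs in *Sst*-positive cells, so the libraries disagreed in direction for both.

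The wider pathway was read from a list of 56 genes, of which 50 were tested between gates. They are 10 other EGF-family ligands, 9 sheddase and gamma-secretase genes, 22 adaptors and kinases, and 15 negative regulators and partners. The sheddase and gamma-secretase genes, which release neuregulins and cleave ErbB4, had 0 of 9 called between MGE interneurons and upper-layer neurons and 3 of 9 called, all higher, between MGE interneurons and cycling GABAergic progenitors, where 39.8% of all genes were called. Between MGE interneurons and upper-layer neurons 10 genes of the list were higher and 6 lower, which is 32% of those tested against 25.3% of all genes, and its median log2 fold change was 0.06 against -0.02 over all genes. *Stat5b*, a transcription factor that binds ErbB4, was higher by 4.73 ± 0.43 (SE), at 29.8 CPM ± 1.44 against 1.08 CPM ± 0.440 (SD, n = 2). *Nck1*, an adaptor, was higher by 3.81 ± 0.24 (SE), and *Erbin*, a scaffold that binds ErbB2, by 2.14 ± 0.18 (SE). Their FDRs were 8.5e-13, 5.3e-18 and 4.5e-14 (edgeR). Between MGE and CGE interneurons 0 were higher and 3 lower, among them *Pik3r1* at -1.63 and *Shc3* at -1.50, and this share of 6% was at the 5.99% of all genes. Between MGE interneurons and striatal neurons 6 were higher and 5 lower (22% against 11.9% of all genes), and the largest were *Hbegf* at 1.29, *Socs5* at 1.18 and *Map2k1* at -1.09.

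Between MGE interneurons and cycling GABAergic progenitors 19 genes of the list were higher and 3 lower (44% against 39.8% of all genes), with a median of 0.33 against 0.13 over all genes. *Tmeff2*, a membrane protein with an EGF-like domain, was higher by 2.53, *Hbegf*, a ligand of Egfr and ErbB4, by 1.78, and the adaptor *Shc3* was lower, at -2.40. Between radial glia and intermediate progenitors 6 were higher and 5 lower (22% against 21.2% of all genes). *Cspg5*, known also as neuregulin-like neuroglycan C, was higher in radial glia by 3.26 ± 0.25 (SE), at 153 CPM ± 23.5 against 15.8 CPM ± 1.64 (SD, n = 2), and *Shc3* by 2.97 and *Tmeff2* by 2.20. Between intermediate progenitors and newborn neurons 4 were higher and 19 lower (46% against 34.4% of all genes), with a median of -0.39 against -0.11 over all genes. The largest were *Tmeff2* at -2.62, *Adam19*, a sheddase of neuregulins, at -2.24 and *Nck1* at 1.85. Between newborn and upper-layer neurons 8 were higher and 6 lower (28% against 16.5% of all genes), led by *Cspg5* at -1.73, *Erbin* at 1.63 and *Nck1* at 1.59. Between layer 6 and upper-layer neurons 6 were higher and 1 lower (14% against 6.44% of all genes), led by *Nck1* at 2.14, *Dusp6*, a phosphatase that limits ERK, at 1.96 and *Pik3r1* at 1.42. Between the Olig1 glial gate and radial glia 9 were higher and 1 lower (20% against 10.4% of all genes), led by *Spry1*, a feedback inhibitor of receptor tyrosine kinases, at 5.17, *Pik3r1* at 4.09 and *Tgfa*, a ligand of Egfr, at 3.70. *Tgfa* held 60.4 CPM ± 30.6 against 4.25 CPM ± 2.02 (SD, n = 2), so its libraries were far apart in the glial gate. In *Sst*-positive against *Sst*-negative MGE interneurons 1 of 41 was called (2.44% against 1.87% of all genes), *Tmeff2*, higher by 1.65 ± 0.22 (SE) at an FDR of 0.00085 (edgeR).

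The genes whose mean levels over the 16 gates were most like those of a member were ranked by Pearson's r of log2(CPM + 1) among 14052 candidate genes, as a description across gates that share libraries and depth. For *Erbb4* they were *Gm38505* (r = 0.965), *Gm3143* (0.958), *Nrxn3* (0.929), *Sox2ot* (0.925) and *Gm20515* (0.911). For *Nrg3* the first was *Nrg3os* (r = 0.967), which the GENCODE M39 annotation places on the opposite strand of *Nrg3*, as it does the second, *Gm20642* (0.932), followed by *Ly6h* (0.930), *Tmem35a* (0.918) and *Gpr135* (0.917). *Nrg1* was most like *Pde1b* (r = 0.918), *Dmrta2* (0.886), *Sypl2* (0.874), *Gm11266* (0.871) and *Gm26660* (0.855). *Egfr* was most like *Tnfaip6* (r = 0.888), *Metrn* (0.873), *Chst3* (0.864), *Tns3* (0.852) and *Prrx1* (0.848). *Nrg2* was most like *Ptpro* (r = 0.946), *Anks6* (0.933), *Ptpn5* (0.925), *AC156546.1* (0.913) and *Plppr5* (0.912). Among the 28 pairs of members, r over the 16 gates ran from -0.67 between *Nrg2* and *Erbb2* to 0.63 between *Nrg2* and *Nrg3*, and was -0.18 between *Nrg1* and *Erbb4* and 0.27 between *Nrg3* and *Erbb4*.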

How the data were processed

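The authors deposited unnormalized UMI counts for each gene and barcode. Per the labels, reads were processed with Cell Ranger 7.0.0 on mm10; the file headers give 7.1.0. Whether intronic reads were counted is not given in the sources used here, and it bears on *Nrg1*, *Nrg3* and *Erbb4*, which each span over 1000 kb.

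Cells with 1500 to 60000 UMIs and under 10% mitochondrial UMIs were assigned to 20 marker gates. The 35 and 65 cells that passed more than 1 gate were left out as possible doublets, and removal of the highest Scrublet scores (scanpy 1.11.5) was an alternative. Counts were summed per gate and library, because cells are not replicates. The 32 sums of 16 gates entered 1 fit in edgeR 4.0.16 (R 4.3.3) with TMM scaling, genes of at least 10 counts in at least 2 sums (14198 genes) and the library as a block; the *Sst* comparison used 4 sums and 8713 genes. Adjusted p-values are Benjamini-Hochberg over all genes tested. An SE is the fold change divided by the square root of F. Scripts were tested on simulated data for MGE interneurons against upper-layer neurons only. There 69% of changes of 1 on the log2 scale and 93% of changes of 2 were recovered. A member that differs by about 1 can therefore be missed. The members and lists were chosen with earlier results of these data known. Named genes are the members, the 3 called pathway genes with the largest fold change per comparison (at least 10 CPM in the higher gate, same direction in both libraries), and the 5 most alike genes. The values of 1 gene that the rule names are not reported here. Intervals and floors (3 counts) cover counting error only. Gene positions are from RefSeq on GRCm38.p6, and overlaps of exons from GENCODE M39. Alternatives were RLE scaling, DESeq2 1.42.0, no filter on low counts, no library block, stricter gates (1 more marker), a minimum of 3000 UMIs, and, chosen after seeing the data, other sets of gates.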

Additional observations from a re-analysis of the deposited data

How the results depend on the processing

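The fits made 32 calls of members over the comparisons. RLE scaling kept 31 of them, a minimum of 3000 UMIs and no filter on low counts kept 32, removal of high Scrublet scores kept 31, and no call changed its direction in any fit run. Calls were also gained, 3 each with high Scrublet scores removed and with no filter on low counts, and 1 each with RLE scaling, DESeq2, a minimum of 3000 UMIs and the neural gates alone. DESeq2 kept 18, the fit without the replicate block 26, and stricter gates 23 of the 27 that could be tested, since the Olig1 glial gate then fell under the minimum of cells in replicate 1. The gates with at least 10 cells and the neural gates alone, both added after seeing the data, each kept 31 of 31. Leaving out a library gave no reversal of a call in the 88 values it could give. The numbering of the libraries names whole samples, and both gates of a comparison come from the same library, so the replicate block is part of the main fit.

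The number of members called moved by over 1.5 times in these cases. With DESeq2 it was 2 between MGE interneurons and upper-layer neurons, 0 between MGE and CGE interneurons, 1 between radial glia and intermediate progenitors, 1 between newborn and upper-layer neurons and 0 between layer 6 and upper-layer neurons. Between MGE and CGE interneurons it was 0 without the replicate block and 0 with stricter gates. In the *Sst* comparison it was 2 with RLE scaling, DESeq2, no filter on low counts or a minimum of 3000 UMIs, 3 with high Scrublet scores removed, where *Nrg1* was called at an adjusted p-value of 0.00272, and 0 without the replicate block. The cause of these differences was not tested.

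Levels in the highest gate moved beyond the spread of the libraries as follows. With high Scrublet scores removed, *Nrg1* was 6466 CPM in intermediate progenitors and *Erbb2* 16.7 CPM in the mural gate. With stricter gates, *Nrg1* was 6437 CPM, *Nrg3* 3311 CPM in layer 6 neurons, *Nrg4* 3.94 CPM in MGE interneurons, *Egfr* 130.03 CPM in the Olig1 glial gate and *Erbb2* 9.72 CPM. With a minimum of 3000 UMIs, *Nrg1* was 6308 CPM. Thinned to 1500 UMIs, the share of cells with a UMI was 95.6% for *Nrg1*, 6% for *Nrg2* in the Olig1 glial gate, 85.4% for *Nrg3*, 0.523% for *Nrg4*, 12.8% for *Egfr*, 1% for *Erbb2*, 0% for *Erbb3* in the Olig1 glial gate and 98.6% for *Erbb4*.

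Scaling by total counts in place of TMM shifted fold changes by 0.18 on the log2 scale between intermediate progenitors and newborn neurons and by -0.16 between MGE interneurons and cycling GABAergic progenitors, and RLE shifted the median gene by 0.10 between the Olig1 glial gate and radial glia. No tested member changed its direction by the scaling to totals. Depth limits *Nrg4*, *Erbb2* and *Erbb3*, and with 2 libraries of a single group no result here speaks of a condition.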

Other observations

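Some gates were too small for a test and are given by their values. In the subplate neuron gate, with 8 and 3 cells, *Nrg3* held 2451 and 1617 CPM and *Nrg1* 806 and 998 CPM, while *Erbb4* had 0 UMIs in both libraries. In the choroid plexus or ependymal gate, with 1 and 14 cells, *Erbb4* had 12 and 84 UMIs, which is 466 CPM in replicate 2.

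The microglia or macrophage gate held 10 and 173 *Nrg1* UMIs, at 80.9 and 396 CPM from 24 and 71 cells, and the endothelial gate held 124 and 159 CPM. The endothelial level overlapped with the 88.5 and 189.7 CPM of the erythroid gate, as did the microglial level.

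Within radial glia, *Erbb4* held 104 and 112 CPM in cells without a cell cycle gene and 56.1 and 17.6 CPM in cells with at least 2, from 34 and 66 against 128 and 158 cells. Both parts lay below the 148 and 209.6 CPM of the erythroid gate, which is no limit for free RNA. They lay above the 9.06 and 7.33 CPM of upper-layer neurons. The cells without a cycle gene were shallower, with medians of 7389 and 4095.5 UMIs against 9609 and 6179.5 UMIs. *Nrg3* differed less, at 510.2 and 401 CPM against 445 and 499 CPM, and its libraries overlapped. These values were looked at after the data had been seen and were not tested.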
